A study of Mus musculus with 12 samples.

Results

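The visceral fat of mice given aspartame and monosodium glutamate (MSG) together on a trans-fat diet was set against that of mice on the trans-fat diet alone, gene by gene. Arrays were taken by their titles, 3 titled ASP+MSG+TFA and 3 titled TFA, which are 6 of the 12 arrays of the series. On these, 20358 genes had a value. The other 6 arrays, 3 of MSG+TFA and 3 of ASP+TFA, entered the fit for the spread between arrays and are given beside the main values.

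All 12 arrays came from male C57Bl/6J mice at 20 weeks of age. Every diet, the control included, was built on 20% w/w partially hydrogenated shortening with 8.68% trans fat. ASP+MSG+TFA mice drank water with 0.25 g/L aspartame (ASP, a dipeptide sweetener of aspartate and phenylalanine) and 0.75 g/L MSG (the sodium salt of glutamate, a flavour enhancer). MSG+TFA and ASP+TFA mice received 1 additive at the same dose, and TFA mice neither. The exposure began before conception. Dams were 6 weeks old when placed on the diets and were mated 3 weeks later, and their offspring were weaned at 4 weeks. Each diet had 15 mice, and each array carried RNA pooled from several of them, so the spread measured here is between pools and not between mice. The fat taken was epididymal, from around the reproductive organs, omental and mesenteric.

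Visceral white fat stores triglyceride in adipocytes, which share the depot with macrophages, lymphocytes, blood vessels and fibroblasts. Fibroblasts lay down the collagens and adhesive glycoproteins of the extracellular matrix, and enzymes and their inhibitors remodel it as the depot grows. Macrophages gather in fat in obesity, where they take up lipid and the debris of dying adipocytes. Adipocytes oxidise fatty acids in mitochondria through beta-oxidation, the citric acid cycle and the complexes of the respiratory chain, and the PPAR nuclear receptors with the coactivator Ppargc1a set the level of many of these genes.

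Adipocyte markers were bright on every array. Adipoq, which encodes the adipocyte hormone adiponectin, had log2 intensities of 13.13, 13.29 and 13.36 on the ASP+MSG+TFA arrays and of 13.11, 13.12 and 13.26 on the TFA arrays. Crisp1, a secretory protein of the epididymis, stood at 13.36, 13.57 and 6.50 on the ASP+MSG+TFA arrays and at 13.40, 5.60 and 13.86 on the TFA arrays, that is, high on 2 of the 3 arrays of each diet. Single arrays also carried markers of liver (Alb at 13.33, 8.14 and 9.11 on the ASP+MSG+TFA arrays, against 8.23, 10.04 and 7.25 on the TFA arrays, the liver list as a whole having a median difference of 0.91 with 0 of 14 genes apart on all arrays) and of pancreas (Ctrb1 at 5.75, 6.19 and 6.07, against 6.78, 12.46 and 6.38). The arrays also differed in dim signal. The 1169 receptor genes of smell (olfactory and vomeronasal), taken here as genes with little signal in fat, had median log2 intensities of 5.44, 5.59 and 5.45 on the ASP+MSG+TFA arrays and of 6.76, 6.60 and 5.66 on the TFA arrays. TFA replicate 3 is thus the TFA array that most resembled the ASP+MSG+TFA arrays in dim signal, and the main differences are also given from that array alone. The part of dim signal in the results was not tested further than by these values and the alternatives of the fit.

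No single gene passed the test. The limits were those of the study, an adjusted p under 0.05 and a difference of 1.4-fold or more. Of 20358 genes, 0 (0%) met them between ASP+MSG+TFA and TFA, and the smallest adjusted p was 0.122 (limma, Benjamini-Hochberg over all genes). At an unadjusted p under 0.05, 1863 genes (9.15%) were higher and 3987 (19.6%) lower on ASP+MSG+TFA, where 1017.9 in all would be expected if no gene differed. The 2 directions held genes of different brightness. Among the 11533 genes with a mean above 6.61, the level under which 90% of receptor genes lay, 1634 (14.2%) were higher and 751 (6.51%) lower. The share of higher genes in these counts was 31.85% over all genes, 45.29% after the trend of the difference with brightness was removed from each array, 43.89% after quantile normalization was repeated and 68.73% when dim genes were left out. Which direction held more genes thus moved with the treatment of dim signal.

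**Figure D1:**
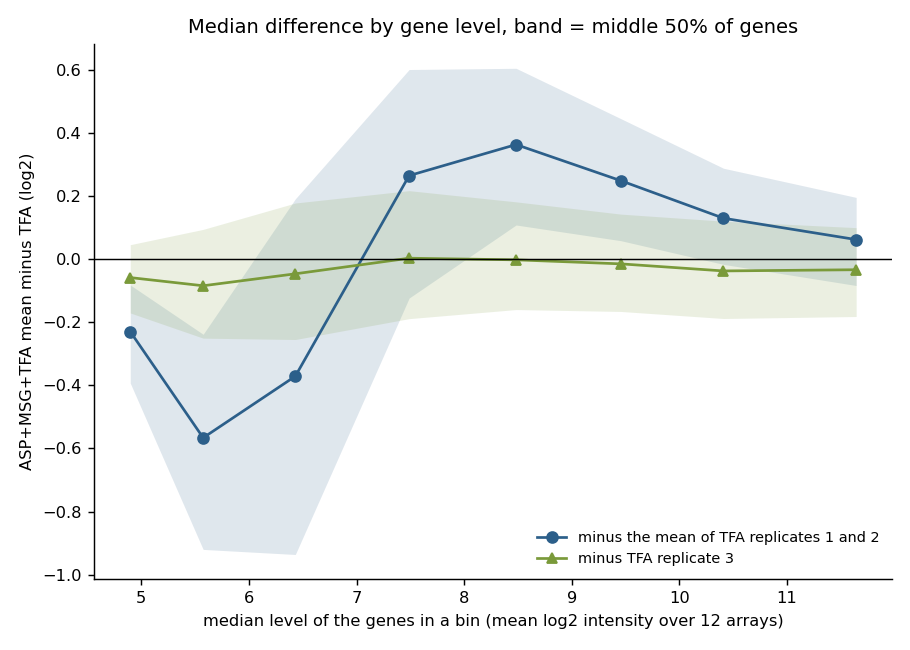
Median log2 difference of ASP+MSG+TFA from TFA (vertical axis) for genes grouped by their mean log2 intensity (horizontal axis), drawn once against TFA replicates 1 and 2 and once against TFA replicate 3, with bands for the middle 50% of genes. Against replicates 1 and 2 the median was -0.57 at a level of 5 to 6 and 0.36 at 8 to 9, whereas against replicate 3 it stayed between -0.08 and 0.00.

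Many genes nonetheless stood apart array by array. The 3 ASP+MSG+TFA arrays lay all above the 3 TFA arrays for 2794 genes (13.7%) and all below for 3652 (17.9%). Of these, 703 genes (3.45%) were also at least 1.4-fold above TFA replicate 3 and 553 (2.72%) at least 1.4-fold below it, and 576 (4.99% of the genes above the dim level) and 178 (1.54%) of them had a mean above that level. On average over the TFA arrays, 46% of all genes were higher and 54% lower, and 67% and 33% of those above the dim level. Against TFA replicate 3 alone, 43.8% of all genes were higher and 56.2% lower on ASP+MSG+TFA, and 48% and 52% of those above the dim level. Without TFA replicate 3 the fit called 1703 genes higher and 4339 lower. Among the 1703, the median log2 difference was 0.77 from TFA replicates 1 and 2 but 0.14 from TFA replicate 3, and 243 genes (14.3%) were at least 1.4-fold above that array. Among the 4339, the medians were -0.99 and -0.16, and 367 genes (8.46%) were at least 1.4-fold below it. Most of the differences called in that fit were thus small against the TFA array with low dim signal.

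The genes that follow were separated on all 6 arrays, were measured by at least 3 probe sets and differed at least 1.4-fold from TFA replicate 3 too. In either direction the 12 with the lowest unadjusted p are given. Their adjusted p was 0.122 in each case (limma), and none passed the threshold. Without TFA replicate 3 all 24 passed it (adjusted p of 0.00939 to 0.0124, limma), and over all alternatives their adjusted p reached from there to between 0.68 and 0.774. Of the 12 higher genes 2 (Ptpre and Nexn) had a TFA mean under the dim level, and of the 12 lower genes 8 had an ASP+MSG+TFA mean under it (Gsg1l, Nkx6-2, Amigo3, Otx1, Tnfsf11, Prss51, Zswim4 and Cacng4), so that they met the limit on levels through the brighter diet only and the sizes of their differences are not exact. With the brightest probe set standing for the gene, the difference was over 1.5 times smaller, or turned, in 7 of the 12 higher and 9 of the 12 lower genes, and by the mean of probe sets it was in 3 and 8. Dapp1, an adaptor protein that binds phosphoinositides downstream of the B cell receptor, had log2 intensities of 8.28, 8.10 and 8.40 on the ASP+MSG+TFA arrays and of 6.73, 6.79 and 7.17 on the TFA arrays. The 2 groups of arrays were apart by more than their own range. The log2 difference was 1.36 ± 0.18 (SE, a 2.58-fold difference) and 1.09 from TFA replicate 3, and all 10 probe sets were higher on ASP+MSG+TFA, the brightest by 0.51. With 1 additive the mean was 7.53 on MSG+TFA and 7.79 on ASP+TFA, both between the other 2 diets.

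Inpp5d encodes SHIP1, an inositol phosphatase of blood cells. Its log2 intensity was 8.62, 8.64 and 8.15 on the ASP+MSG+TFA arrays and 7.37, 7.03 and 6.59 on the TFA arrays. The TFA array with low dim signal was here the lowest of all, so the difference of 1.47 ± 0.27 (0.34 by the brightest probe set) widened to 1.87 from that array alone. The ASP+TFA mean of 8.76 was at the level of ASP+MSG+TFA, and the MSG+TFA mean was 7.89. The 100 bases before the start of Inpp5d (RefSeq, GRCm38.p6, chr1:87620212-87620311, + strand) are shown because they hold, in capitals, GAGGAAGT, a motif of the PU.1 type of ETS factor that is used in myeloid and B cells.
Inpp5d: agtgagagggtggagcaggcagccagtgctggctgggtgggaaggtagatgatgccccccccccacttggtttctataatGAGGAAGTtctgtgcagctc
Searched on both strands, this motif was in 321 (1.19%) of 27025 promoter windows of this length. It was in 1 of the 21 windows available for the leukocyte signalling genes described below.

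Prg4 encodes lubricin, a mucin-like glycoprotein of joints and serous surfaces. It read 9.10, 8.69 and 8.81 on the ASP+MSG+TFA arrays and 6.88, 6.83 and 7.54 on the TFA arrays, with means of 7.37 on MSG+TFA and 7.87 on ASP+TFA. The difference of 1.79 ± 0.33 is a 3.45-fold one, all 13 probe sets ran the same way (the brightest by 0.42), and 1.33 remained from TFA replicate 3. Upk3b, a marker of the mesothelium that covers visceral fat, stood at 9.78, 9.92 and 10.12 on the ASP+MSG+TFA arrays and at 9.78, 8.59 and 9.66 on the TFA arrays, ranges that met, and its part in the Prg4 difference was not tested. H2-DMa, a chaperone that loads peptides onto MHC class II, had 9.59, 9.37 and 9.75 on the ASP+MSG+TFA arrays and 8.43, 8.46 and 8.77 on the TFA arrays. All 6 probe sets were higher, with a difference of 1.02 ± 0.19 from TFA and 0.80 from TFA replicate 3.

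The other higher genes had no list of their own. Myo1e, a class I myosin that links membrane to actin, had 8.19, 8.14 and 8.23 on the ASP+MSG+TFA arrays against 6.26, 6.84 and 7.05 on the TFA arrays, a difference of 1.47 ± 0.25. Map1a, a microtubule-associated protein, had 8.66, 8.83 and 8.88 against 7.27, 7.67 and 7.47, a difference of 1.32 ± 0.23 that was 1.32 from TFA replicate 3 as well. For both genes the lowest ASP+MSG+TFA array lay about 1 log2 unit above the highest TFA array. Ptpre, a receptor-type tyrosine phosphatase, differed by 1.01 ± 0.17 (0.19 by the brightest probe set), with all TFA arrays under the dim level, and stood on both single-additive diets (7.25 on MSG+TFA and 7.55 on ASP+TFA) near its ASP+MSG+TFA arrays (7.29, 7.56 and 7.37), above the TFA arrays (6.35, 6.48 and 6.35). Nexn, an actin-binding protein, differed by 0.96 ± 0.17 (0.89 from TFA replicate 3) with its TFA arrays under the dim level, and Atp8b1, a phospholipid flippase, by 0.98 ± 0.17 (0.88). Prex2, an exchange factor of the GTPase Rac, differed by 0.83 ± 0.16 and by 0.68 from TFA replicate 3, with 39 of 40 probe sets higher. Pml, the organiser of a kind of nuclear body, differed by 0.71 ± 0.14 and 0.64. Hvcn1, a proton channel of phagocytes and B cells, differed by 0.95 ± 0.18 as the median of its probe sets, but its brightest probe set ran the other way.

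The 12 lower genes lay nearer to the dim level. Gsg1l, an auxiliary subunit of AMPA-type glutamate receptors, had 6.43, 6.60 and 6.54 on the ASP+MSG+TFA arrays and 7.41, 7.66 and 7.61 on the TFA arrays. All 3 ASP+MSG+TFA values were under the dim level, so the difference of -1.03 ± 0.15 (-1.08 from TFA replicate 3) is not an exact size, and the same holds for the other 7 such genes. Cacng4, which serves the same receptors, differed by -1.02 ± 0.21, and the homeobox transcription factors Otx1 and Nkx6-2 by -1.48 ± 0.28 and -1.34 ± 0.24, with every probe set of these 3 genes lower. Tnfsf11, the cytokine RANKL that drives osteoclasts, read 6.13, 6.13 and 6.09 on the ASP+MSG+TFA arrays and 7.28, 7.61 and 7.10 on the TFA arrays, a difference of -1.21 ± 0.24 whose lower end lies under the dim level. Rnf24, a RING finger protein, was the brightest of the 12, with 8.05, 7.90 and 8.49 on the ASP+MSG+TFA arrays against 8.92, 9.14 and 8.91 on the TFA arrays and a difference of -0.84 ± 0.17. Mars2, the methionyl-tRNA synthetase of mitochondria, differed by -0.98 ± 0.19 (only -0.08 by the brightest probe set), and the serine protease Prss51 by -1.09 ± 0.21. Ss18l2 had 6.92, 7.11 and 6.68 on the ASP+MSG+TFA arrays and 8.04, 7.72 and 7.95 on the TFA arrays. Amigo3 (an adhesion protein, -1.18 ± 0.21), Nr4a2 (an orphan nuclear receptor, -0.63 ± 0.12) and Zswim4 (-0.69 ± 0.14) were lower as the median of their probe sets but not by their brightest one.

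**Figure D2:**
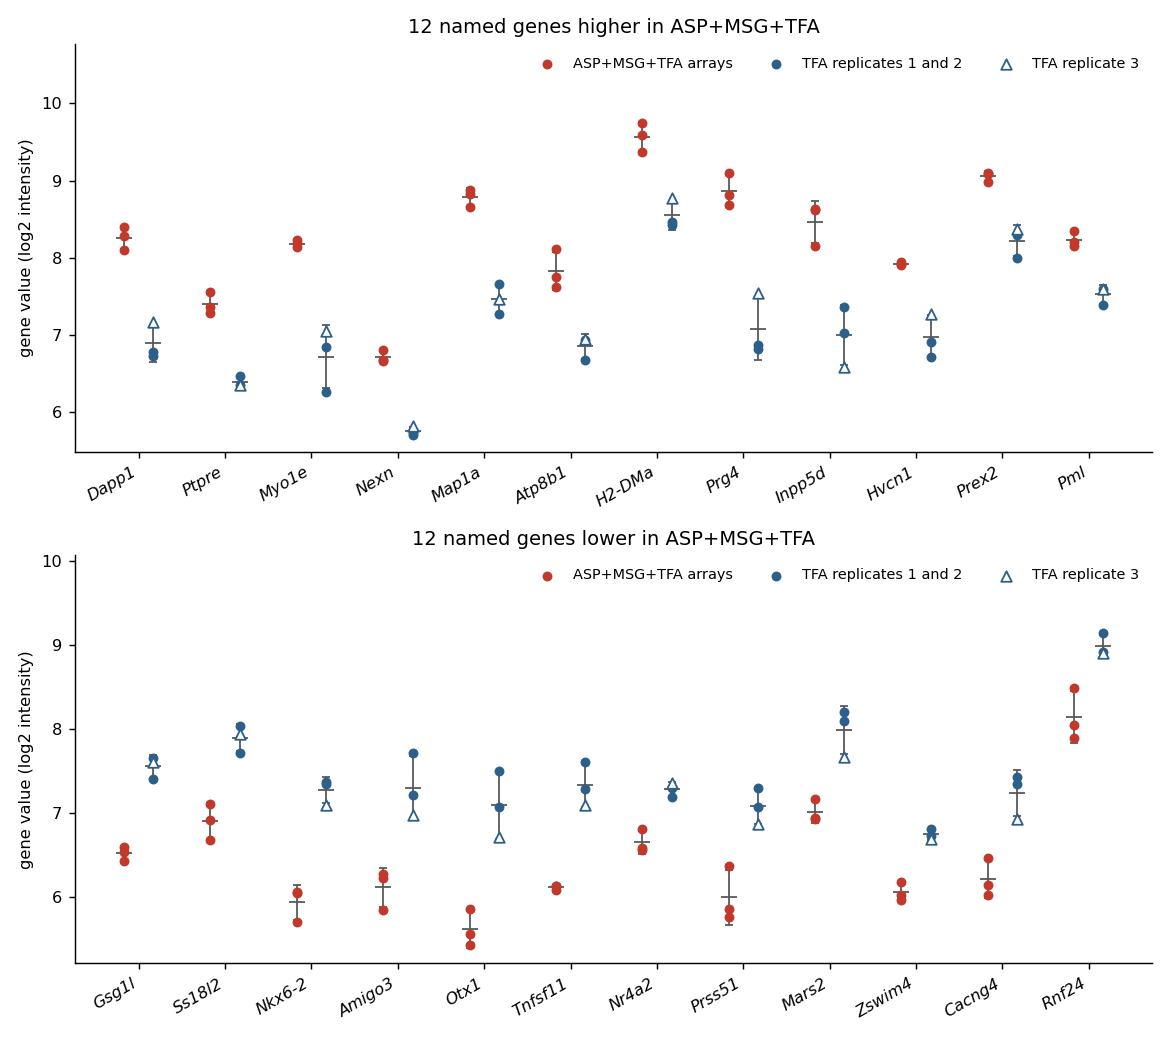
Log2 intensity (vertical axis) of the 12 higher (upper panel) and 12 lower genes (lower panel) on each ASP+MSG+TFA array (red) and each TFA array (blue), with TFA replicate 3 as an open triangle and bars for the mean and SD of 3 arrays. The genes were chosen for having no overlap between the diets, and the brightest array values are 9.75 for H2-DMa among the higher genes and 9.14 for Rnf24 among the lower ones.

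Genes of fibroblasts and the extracellular matrix stood above TFA as a group, as did those of macrophages. Of 35 measured matrix genes 34 were above TFA, the median difference being 0.64 in log2 units, or 0.49 from TFA replicate 3, where all genes had medians of -0.05 and -0.04 and the genes above the dim level of 0.13 and -0.01. In 29 of the 35 the 3 ASP+MSG+TFA arrays lay above the 3 TFA arrays (13.7% of all genes and 21.4% of those above the dim level did so). TFA replicate 3 was under the range of the ASP+MSG+TFA arrays in 32 (24.8% of all genes, 30.7% of those above the dim level). At an unadjusted p under 0.05, 21 were higher and 0 lower (9.15% and 19.6% of all genes, 14.2% and 6.51% of those above the dim level), and 0 passed the adjusted threshold. The summed intensity of the list was 53701 to 62084 on the ASP+MSG+TFA arrays and 40440 to 45799 on the TFA arrays. In bulk tissue, more cells of a type and more RNA per cell cannot be told apart. The medians from TFA were 0.26 on MSG+TFA and 0.36 on ASP+TFA, 2 comparisons that share the TFA arrays with this one. The single-additive arrays were less uniform, with sums of 37275 to 54128 on MSG+TFA and 40508 to 61021 on ASP+TFA.

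Timp1, an inhibitor of matrix metalloproteinases, had log2 intensities of 8.02, 7.72 and 8.36 on the ASP+MSG+TFA arrays and of 6.14, 6.76 and 6.24 on the TFA arrays. The lowest ASP+MSG+TFA array stood well above the highest TFA array, and the difference was 1.65 ± 0.41 (adjusted p = 0.123, limma), or 1.79 from TFA replicate 3 and 0.65 by the brightest probe set. The TFA mean was under the dim level, so this is not an exact size. MSG+TFA and ASP+TFA lay between, at 7.41 and 7.37. Thbs1, the adhesive glycoprotein thrombospondin 1, which activates TGF-beta, had 10.57, 11.24 and 11.05 on the ASP+MSG+TFA arrays and 9.81, 9.82 and 9.89 on the TFA arrays. The 3 TFA arrays were alike, all 24 probe sets were higher, and the difference was 1.11 ± 0.41 from TFA and 1.06 from TFA replicate 3 (adjusted p = 0.132, limma). Its means of 10.22 on MSG+TFA and 9.90 on ASP+TFA were nearer to TFA. Fn1, fibronectin, had 11.98, 11.98 and 12.19 against 11.24, 11.55 and 10.93, and here TFA replicate 3 was the lowest TFA array (difference 0.81 ± 0.33, and 1.12 from that array). Tgfb1, the growth factor that induces matrix genes, had 9.71, 9.44 and 9.71 on the ASP+MSG+TFA arrays and 8.90, 9.01 and 9.13 on the TFA arrays, a difference of 0.61 ± 0.13.

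Among the collagens, Col12a1, a fibril-associated collagen, had 7.03, 7.09 and 6.51 on the ASP+MSG+TFA arrays and 5.94, 5.66 and 5.94 on the TFA arrays, with 59 of 68 probe sets higher but its brightest probe set lower, and its TFA arrays were under the dim level. Col1a2, a chain of collagen I, differed by 0.59 ± 0.21 and by 0.52 from TFA replicate 3. Hspg2, the basement membrane proteoglycan perlecan, differed by 0.64 ± 0.25. Mmp14, a membrane-bound metalloproteinase that cuts collagen, had 8.59, 8.54 and 8.91 against 7.70, 7.45 and 8.25. TFA replicate 3 was the highest TFA array there, and the difference of 0.88 ± 0.22 was 0.43 from it. The 100 bases before its start (RefSeq, GRCm38.p6, chr14:54431498-54431597, + strand) hold CCAAT boxes, the core of NF-Y binding, on the reverse strand, printed here as ATTGG in capitals.
Mmp14: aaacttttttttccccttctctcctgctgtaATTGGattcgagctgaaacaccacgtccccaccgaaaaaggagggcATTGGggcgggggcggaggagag
CCAAT on either strand was in 5301 (19.6%) of the 27025 windows and in 2 of the 22 available for the matrix genes.

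Macrophage identity genes stood out by a like amount. Of 21 measured genes 18 were above TFA and 19 above TFA replicate 3, with median differences of 0.67 and 0.68. The 3 ASP+MSG+TFA arrays were above all 3 TFA arrays in 16 (against 13.7% of all genes and 21.4% of those above the dim level). At an unadjusted p under 0.05, 7 were higher and 0 lower (against 9.15% and 19.6% of all genes, 14.2% and 6.51% of those above the dim level). The summed intensity was 21063 to 25573 on the ASP+MSG+TFA arrays and 12005 to 17165 on the TFA arrays. The medians from TFA were 0.29 on MSG+TFA and 0.35 on ASP+TFA, where the sums were 11604 to 22965 and 13544 to 25761. The median of this list was about the same against the TFA array with low dim signal as against all 3. It was 0.46 with raised dim signal as a term in the fit and 0.29 with epididymis RNA beside it.

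Itgam, the integrin chain CD11b of myeloid cells, had 8.49, 8.36 and 8.57 on the ASP+MSG+TFA arrays and 6.67, 6.77 and 6.83 on the TFA arrays. Within each diet the arrays were alike, and the difference of 1.72 ± 0.46 (3.29-fold, adjusted p = 0.123, limma) was 1.65 from TFA replicate 3, with 29 of 32 probe sets higher. The single-additive diets lay between, at 7.60 on MSG+TFA and 7.77 on ASP+TFA. By its brightest probe set the difference was only 0.12. C1qc and C1qa, chains of the complement protein C1q that tissue macrophages make, differed by 0.75 ± 0.23 and 0.95 ± 0.33, and C1qc had 10.08, 10.04 and 10.32 on the ASP+MSG+TFA arrays and 9.31, 9.47 and 9.41 on the TFA arrays. Csf1r, the receptor that keeps macrophages alive, had 9.79, 9.94 and 10.10 against 8.58, 9.39 and 9.19, and Cd68, a glycoprotein of their lysosomes, 11.22, 11.15 and 11.59 against 9.92, 10.87 and 10.14. Adgre1, an adhesion receptor of the macrophage surface, had 10.03, 10.06 and 10.40 against 9.04, 9.80 and 9.27. In these 3 genes the groups did not overlap, but the TFA arrays were spread more widely than the ASP+MSG+TFA arrays, and the differences were 0.89 ± 0.33, 1.01 ± 0.41 and 0.79 ± 0.39. Laptm5, a lysosomal protein of blood cells, differed by 1.00 ± 0.32 and Mrc1, the mannose receptor CD206, by 0.57 ± 0.29.

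Genes of lipid-laden macrophages had a smaller median, 0.20 over 18 genes and 0.44 from TFA replicate 3. Above TFA were 15, and 12 were above and 6 below TFA replicate 3. The medians from TFA were 0.30 on MSG+TFA and 0.06 on ASP+TFA. The genes of this list named here are from those above TFA replicate 3. The diets did not overlap in 6 higher and 1 lower genes (13.7% and 17.9% of all genes, 21.4% and 8.64% of those above the dim level). One TFA array, replicate 2, was like the ASP+MSG+TFA arrays here. Gpnmb, a membrane glycoprotein of such cells, read 10.69, 10.74 and 11.34 on the ASP+MSG+TFA arrays and 8.92, 10.75 and 9.12 on the TFA arrays, which overlapped, and its difference was 1.33 ± 0.51. Atp6v0d2, a subunit of the proton pump that acidifies lysosomes, had 10.16, 10.13 and 10.37 against 8.84, 9.62 and 7.90, with no overlap and a difference of 1.43 ± 0.37 that was 2.32 from TFA replicate 3. Itgax, the integrin chain CD11c, differed by 1.4 from TFA and by 1.78 from TFA replicate 3, and Cd9, a tetraspanin, by 0.69 and 0.54. In the lysosome list 23 of 27 genes were above TFA with a median of 0.23 and of 0.14 from TFA replicate 3. Gaa, which breaks down glycogen in lysosomes, differed by 0.67, or 0.26 from that array, and the protective protein Ctsa by 0.43 and 0.42.

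Leukocyte signalling and inflammation genes had a median of 0.53, and of 0.45 from TFA replicate 3, over 29 genes, of which 21 were above TFA. At an unadjusted p under 0.05, 12 were higher and 0 lower (9.15% and 19.6% of all genes, 14.2% and 6.51% of those above the dim level). The arrays did not overlap in 15 higher and 2 lower genes (13.7% and 17.9% of all genes, 21.4% and 8.64% of those above the dim level). The median was smaller by the brightest probe set (0.19), by the mean of probe sets (0.29) and with raised dim signal, alone (0.33) or beside epididymis RNA (0.22), as a term. Alox15, a lipoxygenase that makes oxidised lipid mediators in macrophages and eosinophils, had 8.33, 8.21 and 8.09 on the ASP+MSG+TFA arrays and 6.36, 7.02 and 6.88 on the TFA arrays. The difference was 1.46 ± 0.31, and 1.33 from TFA replicate 3, with 12 of 15 probe sets higher, although the brightest was lower. Syk, a tyrosine kinase of immune receptors, had 8.17, 8.34 and 8.08 against 7.20, 6.71 and 6.95, a difference of 1.24 ± 0.30 that was as large from TFA replicate 3 (1.25). Csf1, the growth factor of macrophages, differed by 0.59 ± 0.23.

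Antigen presentation genes also stood mostly above TFA, and B cell genes, at lower levels, were divided. Of 12 MHC class II genes 11 were above TFA, with a median of 0.37 and of 0.51 from TFA replicate 3, and the arrays did not overlap in 5 higher and 1 lower genes (13.7% and 17.9% of all genes, 21.4% and 8.64% of those above the dim level). Cd74, the invariant chain of MHC class II, had 12.00, 11.95 and 12.24 on the ASP+MSG+TFA arrays and 11.37, 11.62 and 11.24 on the TFA arrays, a difference of 0.65 ± 0.22. H2-Ab1, a beta chain of class II, differed by 0.58 ± 0.28. B cell genes had a median of 0.28 over 14 genes, of which only 4 were above the dim level, and 0.01 when a gene was taken as the mean of its probe sets. Of the 14, 8 were above TFA and 6 below, and 13 were above TFA replicate 3. The B cell genes named here are from those above TFA. Cd79a, a signalling chain of the B cell receptor, had 6.97, 6.55 and 6.36 on the ASP+MSG+TFA arrays and 5.83, 5.87 and 5.74 on the TFA arrays, with means of 5.72 on MSG+TFA and 5.27 on ASP+TFA. Ms4a1, the surface protein CD20, had 7.35, 6.73 and 6.98 against 6.16, 5.79 and 6.03, and Bank1, a B cell scaffold protein, differed by 0.71 ± 0.20. For Cd79a and Ms4a1 the diets with 1 additive or none were under the dim level, as were the ASP+MSG+TFA values of 6.55 and 6.36 for Cd79a. Cxcl13, a chemokine of lymphoid follicles, stood at 10.49, 10.27 and 10.43 on the ASP+MSG+TFA arrays and at 9.75, 9.97 and 8.97 on the TFA arrays, and the part of lymph node tissue in the B cell values was not tested. Genes of T and NK cells had a median of -0.14, with 4 of 20 above the dim level.

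**Figure D3:**
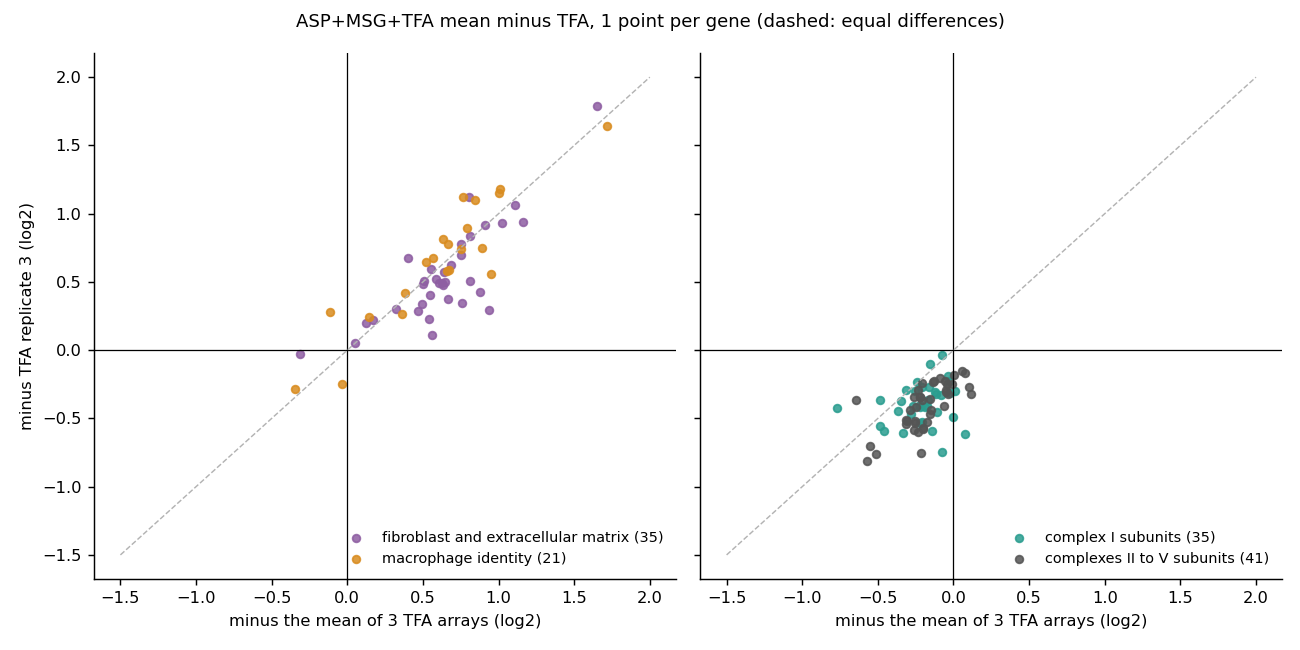
Log2 difference of ASP+MSG+TFA from the mean of the 3 TFA arrays (horizontal axis) and from TFA replicate 3 (vertical axis), 1 point per gene, for matrix and macrophage genes (left panel) and respiratory chain genes (right panel). Matrix and macrophage genes lie mostly above 0 on both axes, with medians of 0.64 and 0.67 from TFA, and respiratory chain genes below 0 on the vertical axis, mostly under the dashed line of equal differences.

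Respiratory chain genes lay below TFA by small amounts. Of 35 subunits of complex I, which takes electrons from NADH, 33 were below TFA and all 35 below TFA replicate 3, with median differences of -0.19 and -0.40. Of 41 subunits of complexes II to V, which pass the electrons on to oxygen and make ATP, 36 were below TFA and all 41 below TFA replicate 3, with medians of -0.20 and -0.36. The 3 ASP+MSG+TFA arrays were under all 3 TFA arrays in 16 genes of complex I and 14 of complexes II to V, where 17.9% of all genes and 8.64% of those above the dim level were. At an unadjusted p under 0.05, 7 and 5 were lower and 0 higher. Of all genes 19.6% were lower and 9.15% higher at that limit, and 6.51% and 14.2% of those above the dim level. The size of the difference from TFA changed with TFA replicate 3, as did the median of genes above the dim level. On the scale of deviations from each gene's mean, the median of complex I was -0.12 to -0.06 on the ASP+MSG+TFA arrays and -0.02, 0.05 and 0.30 on the TFA arrays. For complexes II to V it was -0.13 to -0.02 on the ASP+MSG+TFA arrays and -0.06, 0.03 and 0.30 on the TFA arrays, so the diets overlapped. Without TFA replicate 3 the medians were -0.10 for complex I and -0.05 for complexes II to V. Genes above the dim level had a median of 0.22 without that array and of -0.01 from it alone. With the level trend removed the medians of the 2 lists were -0.25 and -0.23, and with quantile normalization repeated -0.27 and -0.25. In the main fit their medians from TFA were -0.15 and -0.16 on MSG+TFA, and -0.05 and -0.03 on ASP+TFA.

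Ndufa12, an accessory subunit of complex I, had 10.20, 10.15 and 10.23 on the ASP+MSG+TFA arrays and 10.57, 10.70 and 10.74 on the TFA arrays. The spread within a diet was smaller than the gap between them, and the difference was -0.48 ± 0.13 (1.4-fold in size, adjusted p = 0.123, limma). Ndufa10 had 11.63, 11.63 and 11.67 against 11.97, 11.98 and 12.09, a difference of -0.37 ± 0.12, and Ndufs1, the largest core subunit, differed by -0.33 ± 0.16 with -0.61 from TFA replicate 3. Ndufs6 and Ndufb2 differed by -0.48 and -0.46. Uqcr11, a small subunit of complex III, had 10.12, 10.25 and 10.37 on the ASP+MSG+TFA arrays and 10.67, 10.77 and 10.95 on the TFA arrays, with all 4 probe sets lower and a difference of -0.55 ± 0.15 (-0.70 from TFA replicate 3). Cox7b, Cox8b and Cox7a1, subunits of cytochrome c oxidase, differed by -0.64, -0.57 and -0.51, and Sdhb, the iron-sulphur subunit of succinate dehydrogenase, by -0.32. The 100 bases before the start of Uqcr11 (RefSeq, GRCm38.p6, chr10:80406822-80406921, - strand) are shown for their CCGGAAG, the core of ETS factors such as GABP, in capitals.
Uqcr11: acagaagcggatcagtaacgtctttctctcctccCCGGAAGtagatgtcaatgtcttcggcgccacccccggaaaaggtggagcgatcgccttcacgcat
This motif was in 1268 (4.69%) of the 27025 windows, in 6 of the 33 (18.2%) available for complexes II to V and in 2 of the 32 for complex I. CCAAT was in 12 of the 33 (36.4%) windows of complexes II to V and in 6 of the 32 of complex I. Gabpa, the DNA-binding subunit of GABP, was higher by 0.58 and by 0.14 from TFA replicate 3.

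Genes of the citric acid cycle, pyruvate dehydrogenase and mitochondrial beta-oxidation also lay below TFA, by amounts that changed with TFA replicate 3. Without that array the medians were -0.04 for the citric acid cycle list and -0.09 for mitochondrial beta-oxidation. Genes above the dim level then had a median of 0.22. In the main fit the medians of the 2 lists from TFA were -0.16 and -0.18 on MSG+TFA, and 0.01 and -0.02 on ASP+TFA. The citric acid cycle list had medians of -0.14 and, from TFA replicate 3, -0.39, with all 22 genes below that array. Sucla2, a subunit of succinyl-CoA ligase, differed by -0.45 from TFA, and Dld and Dlat, which belong to the pyruvate dehydrogenase complex, by -0.36 and -0.35. Mitochondrial beta-oxidation had medians of -0.16 and -0.40 over 20 genes, 18 of them below TFA. On the scale of deviations, the ASP+MSG+TFA and TFA arrays overlapped in both lists. The citric acid cycle list was at -0.09 to -0.03 against -0.06 to 0.32, and beta-oxidation at -0.11 to -0.06 against -0.09 to 0.28. Acadl and Acadm, acyl-CoA dehydrogenases of long and medium chains, differed by -0.36 and -0.38, Eci1, an enoyl-CoA isomerase, by -0.45, and Hadhb, of the trifunctional protein, by -0.29. Acadl had 11.59, 11.57 and 11.51 on the ASP+MSG+TFA arrays and 11.80, 11.99 and 11.96 on the TFA arrays. Cpt1a, the carnitine palmitoyltransferase that admits long chains to mitochondria, ran against its list, with 10.64, 10.46 and 10.51 on the ASP+MSG+TFA arrays, 10.16, 10.07 and 9.92 on the TFA arrays and a difference of 0.49 ± 0.12. The 67 measured proteins of the mitochondrial ribosome had a median of 0.00 from TFA, yet 62 were below TFA replicate 3, with a median of -0.28.

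**Figure D4:**
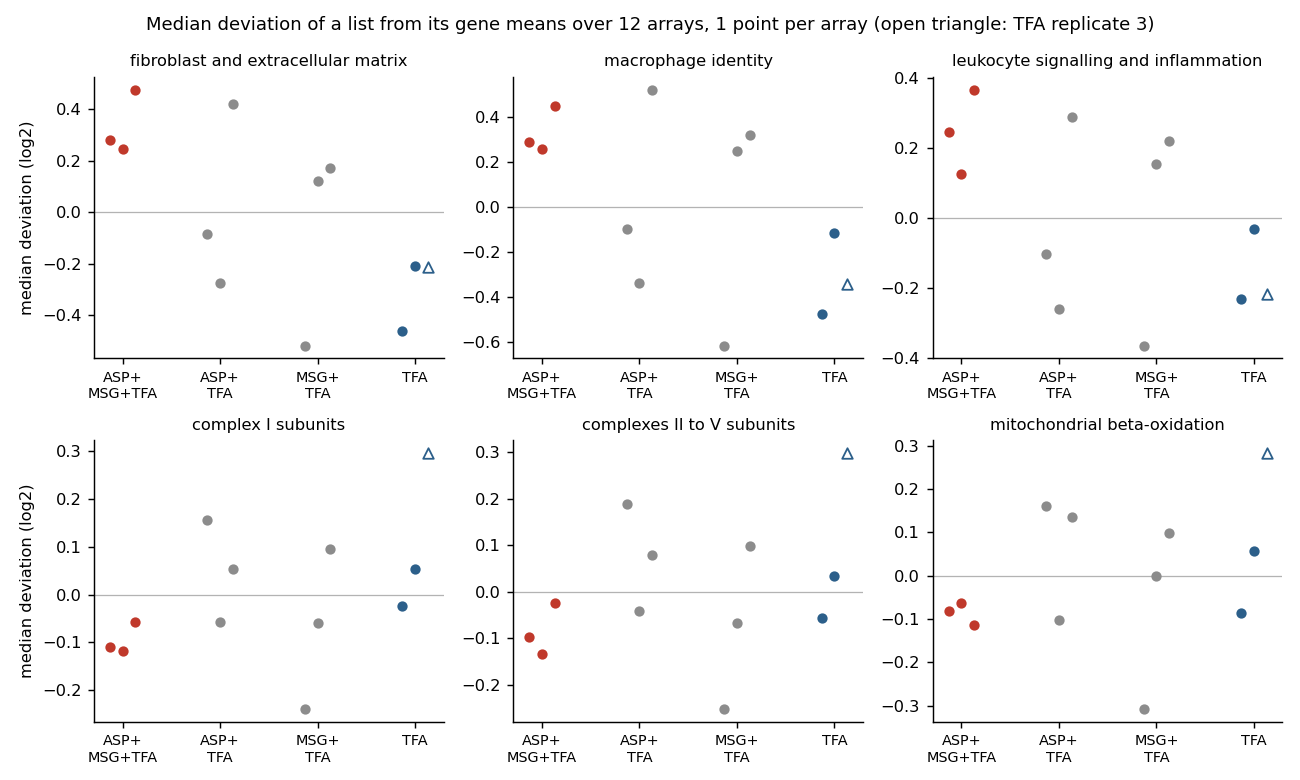
Median deviation of each list from its genes' means (vertical axis, log2 units) on each array of the 4 diets, for 6 lists, with TFA replicate 3 as an open triangle. The matrix list is at 0.24 to 0.48 on the ASP+MSG+TFA arrays and at -0.46 to -0.21 on the TFA arrays, and complex I is at 0.30 on TFA replicate 3, above all other arrays.

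Epididymal RNA differed between the arrays of each diet, and values within arrays of like Crisp1 are given for that reason. Between the ASP+MSG+TFA and TFA arrays with high Crisp1 the median difference was 0.59 for the matrix list, 0.69 for macrophage genes, -0.25 for complex I and -0.27 for complexes II to V. Between the 1 array of each diet with low Crisp1 these were 0.68, 0.57, -0.10 and -0.02, values with no spread from a pair that does not hold TFA replicate 3. Crisp1 was low on 1 array of every diet, so epididymis RNA alone as a term in the fit cannot move a difference of diet means. The matrix and macrophage medians of 0.64 and 0.67 in that fit are therefore no check. With raised dim signal as a term the matrix and macrophage medians were 0.44 and 0.46. With raised dim signal and epididymis RNA both as terms, an alternative added after the values were seen, they were 0.29 each.

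PPAR genes had no common direction. Over 19 genes, 18 of them above the dim level, the median was 0.03, and -0.18 from TFA replicate 3. At an unadjusted p under 0.05, 2 were higher and 2 lower (9.15% and 19.6% of all genes, 14.2% and 6.51% of those above the dim level). Ppara, the nuclear receptor of fatty acid oxidation, had 7.65, 7.42 and 7.16 on the ASP+MSG+TFA arrays and 8.49, 8.01 and 8.09 on the TFA arrays, a difference of -0.78 ± 0.23 that was -0.68 from TFA replicate 3. Ppargc1a, the coactivator of mitochondrial biogenesis, had 8.10, 7.85 and 8.22 against 8.67, 8.31 and 9.00, which did not overlap, with a difference of -0.60 ± 0.23. Plin5, a lipid droplet protein of oxidative tissues, had 6.85, 6.66 and 6.66 against 7.65, 7.40 and 7.34 and a difference of -0.74 ± 0.17. Ehhadh, an enzyme of peroxisomal beta-oxidation, had 10.54, 10.78 and 10.34 against 10.90, 11.03 and 11.45 and a difference of -0.57 ± 0.17. Ncoa3, a coactivator of nuclear receptors, was higher by 0.65 and by 0.28 from TFA replicate 3.

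Vessel and Notch genes were above TFA, with less left of the difference from TFA replicate 3. Of 25 endothelial genes 24 were above TFA, with a median of 0.41 and of 0.22 from that array, and 13 did not overlap (13.7% of all genes, 21.4% of those above the dim level). With raised dim signal as a term the median was 0.16, and with epididymis RNA beside it 0.07. Tie1, an endothelial receptor kinase, differed by 0.99 but by 0.27 from TFA replicate 3, Plxnd1, a semaphorin receptor of vessels, by 0.93 and 0.56, and Robo4, a guidance receptor, by 0.71 and 0.45. Flt4, the VEGF receptor of lymphatic vessels, differed by 0.60 and by 0.47. Angpt2, an angiopoietin that loosens vessels, differed by 0.58 and 0.69. Of 20 Notch pathway genes 17 were above TFA, with medians of 0.47 and 0.24, but the median was -0.05 by the brightest probe set. Adam17, the protease that sheds TNF and cuts Notch, had 9.21, 9.34 and 9.32 on the ASP+MSG+TFA arrays and 8.17, 8.41 and 8.73 on the TFA arrays, a difference of 0.86 ± 0.21. Maml2, a Notch coactivator, differed by 0.58 and 0.47, and the receptor Notch2 by 0.58 and 0.24.

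For insulin signalling the difference was not seen from TFA replicate 3. Of 24 genes 23 were above TFA with a median of 0.31, but 13 were above TFA replicate 3 with a median of 0.01. Foxo3, a transcription factor held back by insulin, differed by 0.53 and by 0.26 from that array, and Gsk3b, a kinase that curbs glycogen synthesis, by 0.40 and 0.16. Mediator subunits (31 genes) had medians of 0.20 and -0.08, chromatin genes (28 genes) of 0.22 and -0.03, and amino acid genes (24 genes) of 0.23 and -0.10. Within the amino acid list, Slc7a8, a transporter of neutral amino acids, kept its difference (1.12 ± 0.32 from TFA and 1.28 from TFA replicate 3). Got1, which makes aspartate and glutamate interchangeable with their keto acids, differed by 0.73 and 0.42, the glutamine transporter Slc38a2 by 0.59 and 0.30, and Asns, asparagine synthetase, by -0.41 and -0.70. In the antioxidant list (30 genes, medians of 0.07 and -0.13) Hmox1, which breaks down haem, had 9.54, 9.20 and 9.48 on the ASP+MSG+TFA arrays and 8.44, 8.65 and 8.69 on the TFA arrays, a difference of 0.81 ± 0.28. Prdx5, a peroxiredoxin, was lower by the median of its probe sets (-0.66 ± 0.19) and higher by their mean, and Prdx6 differed by 0.26.

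**Figure D5:**
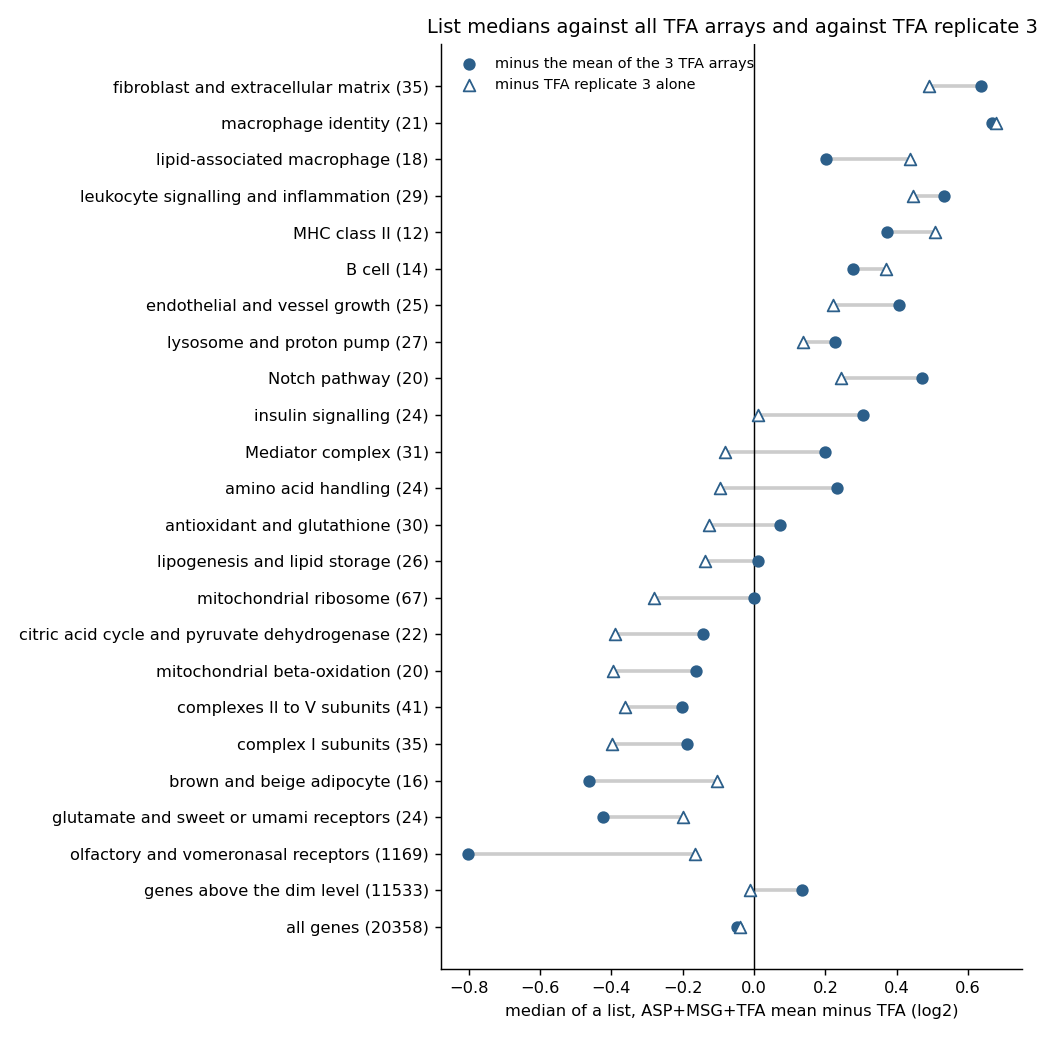
Median log2 difference of each gene list (horizontal axis, number of genes in brackets) between ASP+MSG+TFA and TFA (filled circles), and between ASP+MSG+TFA and TFA replicate 3 alone (open triangles). Matrix (0.64 and 0.49) and macrophage genes (0.67 and 0.68) stand to the right in both, insulin signalling (0.31 and 0.01) only in the first.

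Receptors for the additives themselves were dim. Of 24 glutamate and taste receptor genes 1 was above the dim level, and the list had a median of -0.42, or -0.20 from TFA replicate 3, where the olfactory and vomeronasal receptor genes had -0.80 and -0.17. At an unadjusted p under 0.05, 13 of the 24 were lower, as were 19.6% of all genes and 859 of the 1169 receptor genes of smell. Grm2 and Grm4, metabotropic glutamate receptors, differed by -0.86 and -0.76 from TFA and by -0.27 and -0.54 from TFA replicate 3. Tas1r2, a chain of the sweet taste receptor, differed by -0.85 and -0.28, and the AMPA receptor subunit Gria3 by 0.73 and 0.27. These levels allow no statement on the size of a difference. Genes of brown and beige adipocytes were also mostly dim, with 7 of 16 above the dim level and medians of -0.46 and -0.10.

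Some genes were also measured by quantitative PCR in the study, which chose them on these samples, so their directions are no independent evidence. Of 13 such genes 12 had a value here, all but Trp53, and 7 were above the dim level. The glutamate receptor genes among them were under it. Over the 12 genes, the median array difference was -0.29, and -0.04 from TFA replicate 3. At an unadjusted p under 0.05, 4 were higher and 5 lower (9.15% and 19.6% of all genes, 14.2% and 6.51% of those above the dim level). Thbs1, Col1a2, Fn1 and Alox15 were above TFA and Ppargc1a and Ehhadh below it, with the values given above. Tfam, the transcription factor of mitochondrial DNA, differed by -0.03, and by -0.31 from TFA replicate 3. The glutamate receptor subunits Grin1, Grin2c and Grik4 differed by -0.56, -0.67 and -0.55, and by -0.40, -0.21 and -0.45 from TFA replicate 3. Grik3 and Grin2a differed by -0.32 and -0.26 from TFA but by 0.28 and 0.12 from TFA replicate 3, the opposite sign. The 54 measured genes that the study names for both additives in fat had a median of 0.13, and of -0.03 from TFA replicate 3. Of these, 51 were above the dim level. At an unadjusted p under 0.05, 9 were higher and 5 lower (9.15% and 19.6% of all genes, 14.2% and 6.51% of those above the dim level). On all arrays 17 stood above and 9 below TFA (13.7% and 17.9% of all genes, 21.4% and 8.64% of those above the dim level). Gadd45b, a stress-induced gene, had 7.57, 7.43 and 7.70 on the ASP+MSG+TFA arrays and 6.77, 6.87 and 6.80 on the TFA arrays, a difference of 0.75 ± 0.24.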

How the data were processed

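The values deposited are linear intensity of 12 Affymetrix Mouse Gene ST arrays after normalization by the authors, for which the submitters' notes name GCRMA and Partek, without versions or a genome build. No scanner file was used here, and the deposited columns do not share a single distribution, so dim signal differs between arrays. About 250 ng of RNA was labelled per array. With 3 arrays a diet, their number limits precision.

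Of 241576 probe sets, 212138 name exactly 1 gene in the platform's annotation, 4672 name several and 24766 have no listed gene. Intensities were turned to log2, and a gene's value was the median over its probe sets naming only it (median 8 probe sets a gene, 2257 genes with 1), an average over exons that cannot separate transcripts. Symbols were updated through RefSeq GRCm38.p6, used for names and promoter sequences only (17626 current, 2743 replaced, 53 kept).

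Diet means were estimated from all 12 arrays together with limma 3.58.1 (R 4.3.3, data.table version 1.17.8; 8 residual and 2.73 prior degrees of freedom). Tests were two-sided, with Benjamini-Hochberg adjustment over 20358 genes. Calls needed an adjusted p under 0.05 and a 1.4-fold difference, the limits in the study's methods. The procedure was run on simulated data with independent noise in each gene. Differences in dim signal or epididymis RNA between arrays were not simulated, so that run cannot show their effect. The sample titles call the arrays biological replicates.

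Named genes had no overlap between the diets, at least 3 probe sets, a level above the 90th percentile of receptor genes (6.61, for lower genes also on TFA replicate 3), a 1.4-fold difference from TFA replicate 3 and an informative symbol, and the 12 with the smallest unadjusted p were taken in each direction. Up to 4 members of each described list, the genes measured by quantitative PCR and genes the study names were added, with a few known members of a list chosen after their values were seen. The comparison, the gene lists and the check against TFA replicate 3 were chosen with earlier results of these data known, so lists got no test. Alternatives changed the probe set summary, the filter, the normalization, the terms of the fit, the arrays used and the tool (the methods' analysis of variance). The paper's own fold changes were not used.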

Additional observations from a re-analysis of the deposited data

How the results depend on the processing

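No gene was called with the mean of probe sets, without dim genes, with the level trend removed, with quantile normalization repeated, in a fit of the 2 diets only, with raised dim signal or epididymis RNA as a term, with TFA replicate 3 as the only TFA array, or by the methods' analysis of variance (1743 higher and 3400 lower at an unadjusted p under 0.05). By the brightest probe set 1 gene was called higher (Alpk1) and 1 lower (AI593442), and with raised dim signal and epididymis RNA both as terms, chosen after the values were seen, 37 were higher and 3 lower, most of the 37 being genes of the epididymis. Leaving out 1 array called 0 to 1703 genes higher and 0 to 4339 lower, the highest counts without TFA replicate 3.

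At an unadjusted p under 0.05 the higher genes were 1215 by the brightest probe set, 580 with raised dim signal as a term, 562 with TFA replicate 3 alone, 926 with both terms, and 856 (without TFA replicate 1) to 3354 (without TFA replicate 3) when 1 array was left out. The lower genes were 794 without dim genes, 2435 with the level trend removed, 2472 with quantile normalization repeated, 1479 with raised dim signal as a term, 922 with TFA replicate 3 alone, 1718 with both terms, and 1733 to 5723 when the same arrays were left out. Genes apart on all arrays and 1.4-fold below TFA replicate 3 were 1318 by the brightest probe set, 282 by the mean of probe sets, 178 without dim genes, and 566 to 833 (without ASP+MSG+TFA replicate 2) with 1 array left out.

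Deviations of same-numbered arrays correlated at 0.15, -0.36 and -0.15, and those of different-numbered arrays at -0.46 to 0.58. These values cannot decide on a shared batch, since dim signal and Crisp1 also differed between arrays of a diet. The main fit did not use the replicate numbers of the titles. With them as a replicate block 2 genes were called higher (Cilp and Dapp1) and 0 lower, and with the block in a fit of the 2 diets, added later, none.

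The complex I median was -0.39 with raised dim signal as a term, -0.40 with TFA replicate 3 alone and -0.43 with both terms. The macrophage median was 0.46 and the matrix median 0.44 with raised dim signal as a term, and both were 0.29 with both terms, while the matrix median was 0.42 by the brightest probe set. In 19 alternatives the matrix, macrophage and both respiratory chain medians kept their sign.

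By the brightest probe set the log2 difference turned to -0.16 for Hvcn1, 1.57 for Amigo3, 0.17 for Nr4a2, 0.0576 for Zswim4, -0.29 for Alox15, -0.36 for Col12a1, 0.0192 for Prdx5 and 0.17 for Tfam, and by the mean of probe sets to 0.0874 for Prdx5. Grik3 turned to 0.11 with the level trend removed, 0.0895 with quantile normalization repeated, 0.0167 with raised dim signal as a term, 0.28 with TFA replicate 3 alone, 0.0553 with both terms, and lay between -0.62 (without TFA replicate 3) and 0.0043 (without TFA replicate 1) with 1 array left out. Grin2a turned to 0.13, 0.12 and 0.11 with raised dim signal as a term, with TFA replicate 3 alone and with both terms. Tfam lay between -0.18 (without TFA replicate 1) and 0.13 (without ASP+MSG+TFA replicate 2) with 1 array left out, and at 0.11 without TFA replicate 3. Of 1997 values for 106 genes, 1913 kept direction and side of the threshold, 64 passed it only in the alternative (59 of them without TFA replicate 3, among them Itgam, Timp1, Alox15, Syk, Tgfb1, Ppara and Ndufs6) and 20 turned direction. The causes were not tested.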
